A study of Mus musculus with 10 samples.

Results

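The genes described here mark T cells and NK cells: the T cell receptor complex, its coreceptors and signalling proteins, costimulatory and checkpoint receptors, cytotoxic granule proteins, NK receptors and the factors that direct these cells. They were chosen by function, and 37 of the 38 listed genes were measured, among 19938 genes tested. The remaining gene, Lck, was not analysed here. Each gene was read by the feature that the array annotation gives to it alone, and no member had a second such feature. The liver RNA came from male C57BL/6J mice that were 8 weeks old when an adenovirus was injected into the tail vein, and the fed mice were studied 3 weeks later. The virus encoded Phf2, a histone demethylase, in 5 mice and GFP, a fluorescent protein, in 5 control mice, so that all 10 livers had received an adenovirus and none was from an uninjected mouse. An adenovirus given by this route reaches mainly hepatocytes. The sources used here do not name the promoter that drove Phf2 or GFP. Each liver was hybridized to 1 Affymetrix Gene ST array, and values are on the log2 scale after normalization by RMA, so that a difference of 1 is a doubling of signal.

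T cells recognise peptides on MHC molecules through a receptor that signals only together with the CD3 chains, and the coreceptors CD8 and CD4 divide them into killer and helper cells. NK cells lack this receptor and read a balance of activating and inhibitory receptors on their targets. Both kill by releasing granules that hold perforin and granzymes. The liver is rich in both cell types, which patrol its sinusoids, and T cells gather there after viral infection.

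Array medians lay between 5.06 and 5.18, and arrays correlated with each other at 0.9783 to 0.9932, with 0 pairs of identical values. For the Phf2 gene itself the feature differed by -0.05 between the groups, with a standard error of 0.08 (limma, adjusted p = 0.751). Its position on the transcript is not known here, so this value is no check of the labels.

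The promoters of 6 members are shown because they include the 4 genes with the largest differences between the groups (Cd3g, Gzma, Nkg7 and Cd3d) and the neighbours Cd3e and Gzmk. Cd3g, Cd3d and Cd3e lie next to each other on chromosome 9, with 0 protein-coding genes between them. The promoters of Cd3g and Cd3d face away from each other across a gap of 854 bases between their windows. Gzma and Gzmk are neighbours on chromosome 13, and Nkg7 lies on chromosome 7. Each window runs from 250 bases before the gene start to 50 bases after it (RefSeq, GRCm38.p6), and capitals mark AGGTGT or its reverse complement ACACCT, the core of the site bound by T-box factors such as T-bet and Eomes.
Cd3g (chr9:44980382-44980681, minus strand): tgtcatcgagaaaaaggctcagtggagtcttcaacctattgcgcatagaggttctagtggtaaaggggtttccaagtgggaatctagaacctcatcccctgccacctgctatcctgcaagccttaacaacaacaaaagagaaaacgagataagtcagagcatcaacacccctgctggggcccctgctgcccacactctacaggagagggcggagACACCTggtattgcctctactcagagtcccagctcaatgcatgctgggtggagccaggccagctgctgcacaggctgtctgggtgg
Cd3d (chr9:44981536-44981835, plus strand): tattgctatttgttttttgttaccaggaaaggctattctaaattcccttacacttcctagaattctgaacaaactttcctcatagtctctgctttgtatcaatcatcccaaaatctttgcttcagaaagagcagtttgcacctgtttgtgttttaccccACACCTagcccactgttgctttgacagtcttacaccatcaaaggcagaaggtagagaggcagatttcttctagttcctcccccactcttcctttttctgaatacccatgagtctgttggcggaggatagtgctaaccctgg
Cd3e (chr9:45009562-45009861, minus strand): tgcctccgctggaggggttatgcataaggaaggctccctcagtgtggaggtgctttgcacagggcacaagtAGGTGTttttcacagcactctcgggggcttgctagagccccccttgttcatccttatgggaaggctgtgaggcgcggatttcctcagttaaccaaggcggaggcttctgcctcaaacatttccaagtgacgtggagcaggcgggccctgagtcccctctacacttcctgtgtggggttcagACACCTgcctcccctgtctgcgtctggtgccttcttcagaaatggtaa
Nkg7 (chr7:43436888-43437187, plus strand): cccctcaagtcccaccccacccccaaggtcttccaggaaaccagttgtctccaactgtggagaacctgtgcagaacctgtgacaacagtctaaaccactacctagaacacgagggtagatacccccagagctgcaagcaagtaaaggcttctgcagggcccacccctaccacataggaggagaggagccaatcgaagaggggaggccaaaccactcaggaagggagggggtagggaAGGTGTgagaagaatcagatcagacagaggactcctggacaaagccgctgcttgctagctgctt
Gzma (chr13:113100932-113101231, minus strand): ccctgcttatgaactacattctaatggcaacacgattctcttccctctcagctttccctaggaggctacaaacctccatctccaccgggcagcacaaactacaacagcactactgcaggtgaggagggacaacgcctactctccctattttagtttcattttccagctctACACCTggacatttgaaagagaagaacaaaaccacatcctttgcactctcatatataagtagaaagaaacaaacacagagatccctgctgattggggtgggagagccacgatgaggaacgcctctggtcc
Gzmk (chr13:113180916-113181215, minus strand): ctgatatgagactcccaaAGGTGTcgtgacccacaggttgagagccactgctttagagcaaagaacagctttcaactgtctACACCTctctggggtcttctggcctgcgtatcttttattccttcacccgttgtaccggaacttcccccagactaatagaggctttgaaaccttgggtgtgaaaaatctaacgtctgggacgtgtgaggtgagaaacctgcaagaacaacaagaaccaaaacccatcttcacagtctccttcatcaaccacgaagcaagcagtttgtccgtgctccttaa
Counted from the gene start, with negative positions before it, these letters began at -36 in Cd3g, -91 in Cd3d, -179 and 2 in Cd3e, -14 in Nkg7, -80 in Gzma, and -232 and -169 in Gzmk. Of the 25 measured members with a promoter window, 9 held the letters (36%), against 15.7% of all 27025 genes with a window. The letters TGTGGT or ACCACA, a core of RUNX sites, were in 11 of the 25 (all genes, 18.9%), and AGGAAG or CTTCCT, a core of ETS sites, in 14 (38.4%). TGGAAA or TTTCCA, read by NFAT, was in 8 (23.9%), and TGANTCA, read by AP-1, in 2 (8.97%). A match describes the letters of the window and does not show that a factor binds there.

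Most genes of the T cell receptor complex and its coreceptors (5 of 7), and 2 of 5 cytotoxic genes, were higher in the livers of Phf2 mice than in those of GFP mice. Of 37 members, 9 passed an adjusted p of 0.05 and all 9 were higher in Phf2 mice (24.3%), whereas 5.43% of all genes tested were higher at this threshold and 9.67% passed it in either direction. The 9 were Cd3g, Gzma, Nkg7, Cd3d, Cd8a, Cd8b1, Cd3e, Klrd1 and Lat. Of the 37 members, 10 had a mean level at or above the median of all genes. Cd3d, Cd8b1, Klrd1 and Lat were not among these 10. For a dim member, a small difference does not show that the gene was unchanged. With each array centred on its median, 829 genes were higher (4.16%) and 959 lower, in place of 1083 and 846, and 6 members were higher. No member was lower (0 of 37, against 4.24% of all genes), although Zap70 had an unadjusted p of 0.014 in this direction, and 1 member was lower without GFP replicate 3 (Zap70, adjusted p = 0.0448). All 5 Phf2 mice lay above all 5 GFP mice for 7 members (18.9%), against 4.71% of all genes. The median log2 difference of the members was 0.20, against -0.015 over all genes, and 29 of the 37 lay above 0 (78.4%), against 45.3% of all genes. When a fold of at least 1.5 and an unadjusted p of 0.05 were required instead, 9 members were also higher (all genes, 2.38%) and 0 lower (all genes, 1.16%), with Cd2 among them in place of Lat. Since whole liver was measured, more cells of a type and more RNA per cell cannot be told apart. Each array stands for 1 mouse, named a biological replicate in the labels.

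**Figure D1:**
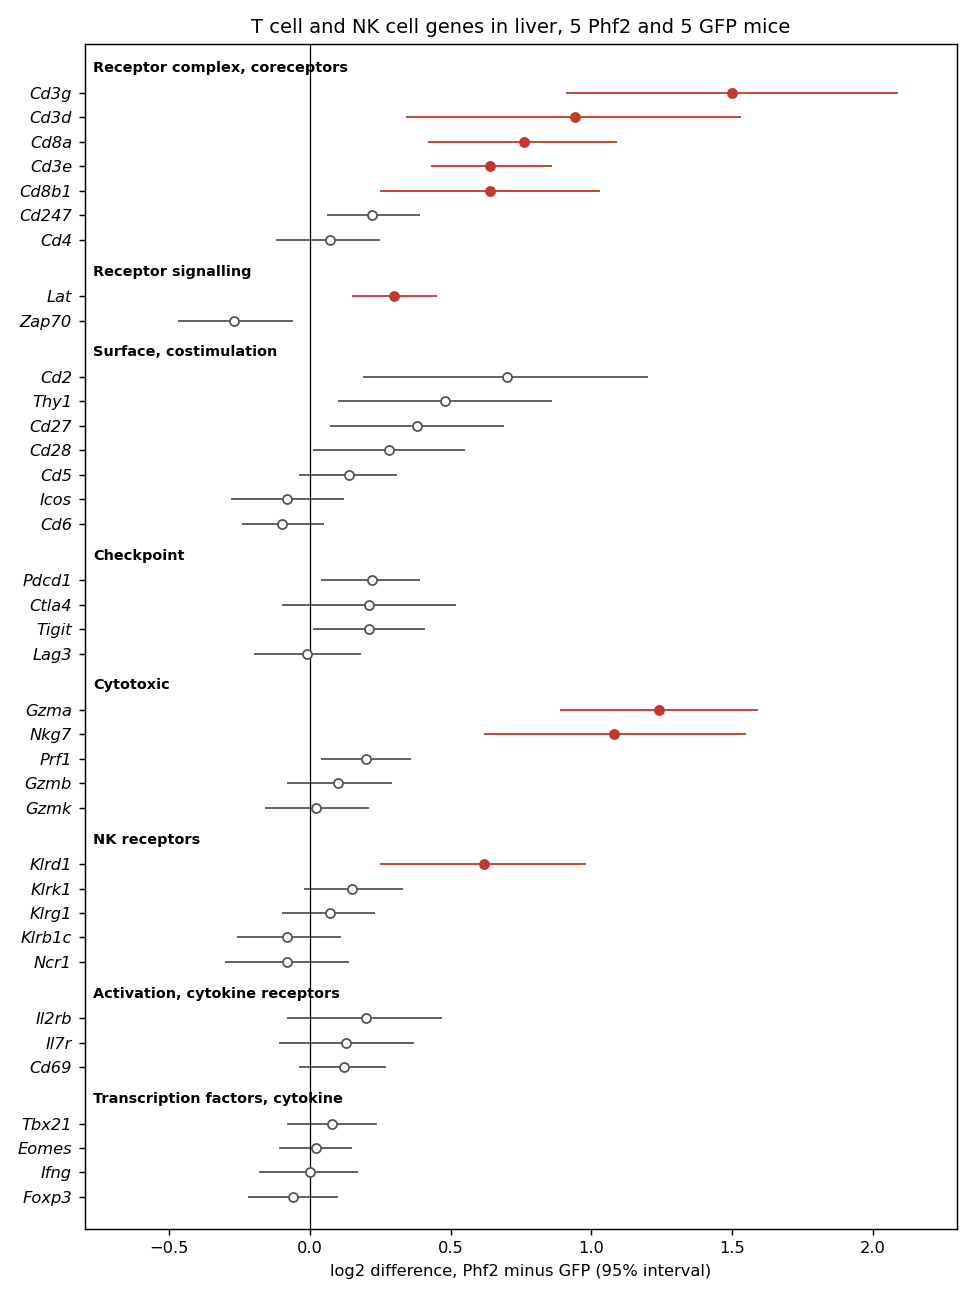
Log2 difference (Phf2 minus GFP, horizontal axis) of the 37 measured members in 8 role groups, with 95% intervals from limma. Red, filled points are members past the adjusted threshold of 0.05 and grey, open points the rest. All 9 red points lie to the right of 0, from Lat (0.30) to Cd3g (1.5).

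In the receptor complex and its coreceptors, 5 of 7 genes were higher in Phf2 mice and 2 did not pass the test. Cd3g, which encodes the CD3γ chain, read 6.26, 6.43, 7.02, 7.43 and 5.76 in Phf2 mice 1 to 5, against 4.66, 5.34, 5.41, 5.19 and 4.77 in GFP mice 1 to 5. The lowest Phf2 mouse lay above the highest GFP mouse. This was a log2 difference of 1.5 (standard error 0.27, adjusted p = 0.00393), or 2.83-fold. Cd3e, for the ε chain, read 6.24, 6.30, 6.40, 6.62 and 6.27 in Phf2 mice and 5.44, 5.86, 5.73, 5.93 and 5.65 in GFP mice. Its groups did not overlap, and the log2 difference was 0.64 (standard error 0.10, adjusted p = 0.00161). Cd3d, for the δ chain, read 4.89, 5.16, 5.65, 6.28 and 4.46 in Phf2 mice, against 4.39, 4.34, 4.36, 3.97 and 4.68 in GFP mice. Phf2 mouse 5 lay below GFP mouse 5, so that the groups overlapped. The difference of 0.94 for Cd3d (standard error 0.27) was just past the threshold, at an adjusted p of 0.0498. It did not pass it without any 1 of 8 arrays (all but Phf2 replicates 1 and 5, adjusted p up to 0.114). Cd247, for the ζ chain that carries most of the signal of the complex, averaged 4.79 ± 0.07 in Phf2 mice and 4.57 ± 0.15 in GFP mice (SD, n = 5 each), and its difference of 0.22 did not pass the test (adjusted p = 0.0991).

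Both chains of the coreceptor of killer T cells were higher. Cd8a, for the α chain, read 5.87, 5.91, 6.43, 6.61 and 5.84 in Phf2 mice, against 5.27, 5.60, 5.27, 5.54 and 5.17 in GFP mice, with no overlap between the groups. Its log2 difference was 0.76 (standard error 0.15, adjusted p = 0.00798). Cd8b1, for the β chain, read 5.07, 5.58, 5.14, 6.08 and 4.91 in Phf2 mice and 4.78, 4.83, 4.64, 4.66 and 4.67 in GFP mice. The groups again did not overlap, with a difference of 0.64 (standard error 0.18, adjusted p = 0.0439). This call was lost without Phf2 replicate 2 or 3 or without any 1 GFP array (adjusted p = 0.051 to 0.111), and by the methods' t-test (adjusted p = 0.135). Cd8a and Cd8b1 are neighbours on chromosome 6. Cd4, the coreceptor of helper T cells, lay between 4.88 and 5.30 in Phf2 mice, against 4.92 to 5.14 in GFP mice, a difference of 0.07 with a 95% interval of -0.12 to 0.25.

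Of the signalling proteins that act directly below the receptor, Lat was higher and Zap70 did not pass the test. Lat, the membrane scaffold on which the signal is assembled, read 5.44, 5.60, 5.56, 5.76 and 5.47 in Phf2 mice, against 5.31, 5.29, 5.24, 5.28 and 5.19 in GFP mice. The groups were close but did not overlap, at a log2 difference of 0.30 (standard error 0.07, adjusted p = 0.0143). For Zap70, the kinase that binds the phosphorylated CD3 and ζ chains, the difference was -0.27 (standard error 0.09, adjusted p = 0.101), with 4.41 to 4.70 in Phf2 mice and 4.57 to 4.99 in GFP mice.

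**Figure D2:**
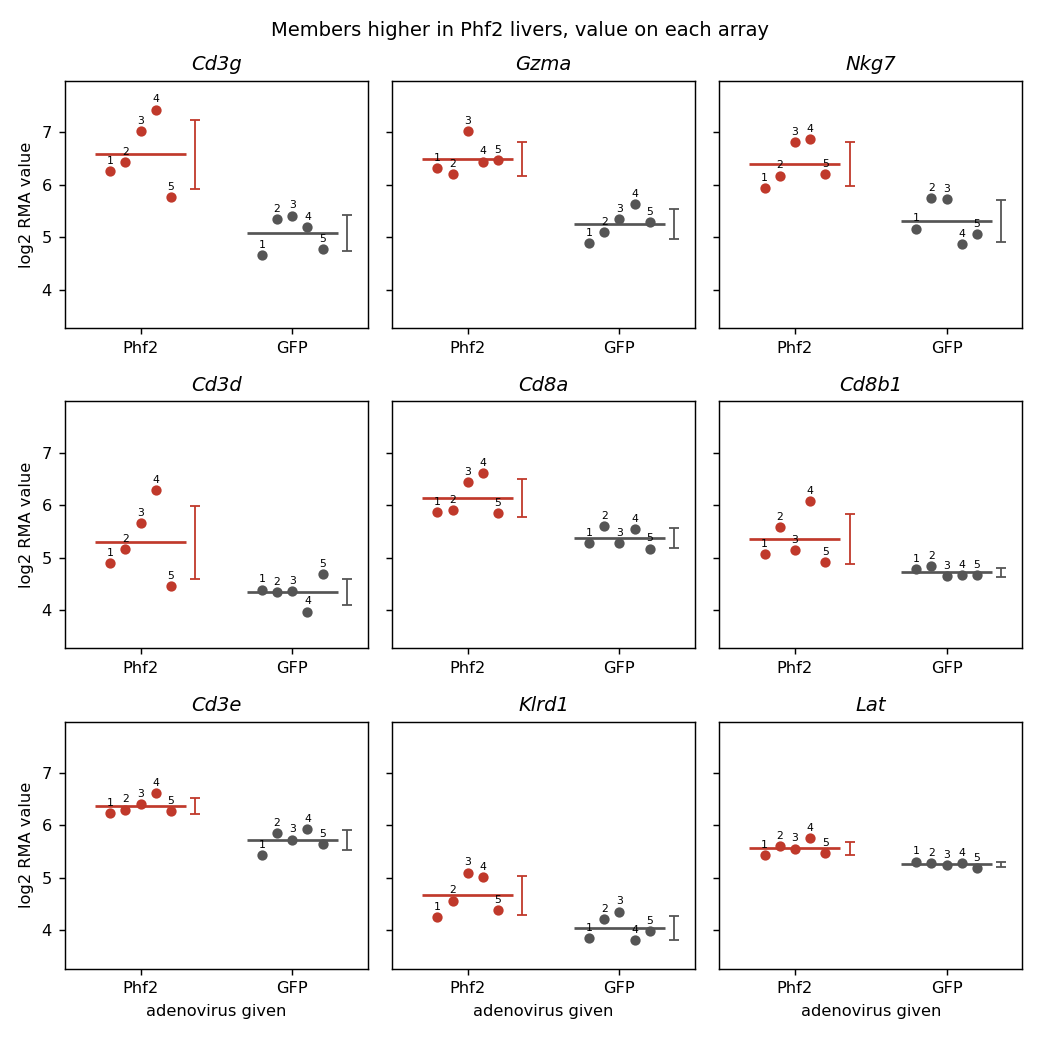
Log2 RMA value (vertical axis, shared by all panels) of the 9 members that were higher in Phf2 mice, with the 5 Phf2 arrays in red and the 5 GFP arrays in grey, numbered by replicate. Long lines are means and bars the SD, and the groups overlap only for Cd3d and Klrd1.

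Of 5 cytotoxic genes, Gzma and Nkg7 were higher. Gzma, for granzyme A, a protease of the granules, read 6.31, 6.20, 7.02, 6.44 and 6.46 in Phf2 mice, against 4.88, 5.09, 5.35, 5.63 and 5.29 in GFP mice. With no overlap and a log2 difference of 1.24 (standard error 0.16, adjusted p = 0.000454), it had the smallest p of the members. Nkg7, a granule membrane protein of killer lymphocytes, read 5.93, 6.17, 6.81, 6.86 and 6.20 in Phf2 mice and 5.16, 5.74, 5.73, 4.86 and 5.06 in GFP mice. It also had no overlap, with a difference of 1.08 (standard error 0.21, adjusted p = 0.00677), or 2.12-fold. The other granule genes did not pass the test. Prf1, for the pore-forming perforin, had a value of 0.20 (adjusted p = 0.11), with 5.77 to 6.05 in Phf2 mice and 5.62 to 5.84 in GFP mice. Gzmb, for granzyme B, had one of 0.10 (95% interval -0.08 to 0.29). Gzmk, for granzyme K and the neighbour of Gzma, had one of 0.02 (95% interval -0.16 to 0.21), with 4.27 to 4.57 in Phf2 mice and 4.26 to 4.67 in GFP mice. Granzyme genes resemble each other in sequence, and how far their features cross-hybridize was not tested.

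Among the NK receptors, 1 of 5 was higher. Klrd1, for CD94, which pairs with NKG2 receptors on NK cells and on some CD8 T cells, read 4.26, 4.57, 5.10, 5.01 and 4.39 in Phf2 mice, against 3.85, 4.22, 4.36, 3.82 and 3.99 in GFP mice. Only Phf2 mouse 1 lay within the range of the GFP mice, below GFP mouse 3. The log2 difference was 0.62 (standard error 0.17, adjusted p = 0.0358), a call lost without Phf2 replicate 2, 3 or 4 or GFP replicate 1, 2, 4 or 5 (adjusted p = 0.0503 to 0.0943). Klrk1, for the activating receptor NKG2D and the neighbour of Klrd1 on chromosome 6, had a value of 0.15 (95% interval -0.02 to 0.33). Ncr1, for NKp46, a receptor found on NK cells and related innate lymphocytes but on few T cells, read 3.63, 3.61, 3.57, 3.48 and 3.54 in Phf2 mice, against 3.49, 3.99, 3.75, 3.60 and 3.38 in GFP mice. The Phf2 mice lay within the range of the GFP mice, and the difference was -0.08 (95% interval -0.30 to 0.14). Klrb1c, for NK1.1, the antigen by which NK cells are identified in this strain, had a value of -0.08 and the inhibitory receptor Klrg1 one of 0.07. All 5 NK receptors were dim, with the mean level of Klrd1 in the lowest 27.2% of genes and those of the other 4 in the lowest 4.5% to 19%. The array resolves little at such levels, so that the values of these 4 do not show that NK cell genes were unchanged.

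None of the 7 surface and costimulatory receptors passed the test. Cd2, the adhesion receptor for CD48, read 6.22, 6.31, 5.72, 7.06 and 5.53 in Phf2 mice, against 5.21, 5.67, 5.64, 5.47 and 5.37 in GFP mice. Phf2 mouse 5 fell within the GFP range, and the difference of 0.70 had a standard error of 0.23 (adjusted p = 0.0852). It passed without that mouse (0.85, adjusted p = 0.0249). Thy1, a surface glycoprotein of mouse T cells that fibroblasts also carry, read 6.39, 6.64, 6.46, 7.08 and 6.08 in Phf2 mice and 5.63, 6.08, 6.34, 6.28 and 5.93 in GFP mice. Its difference was 0.48 (adjusted p = 0.121), and without Phf2 replicate 5 it passed as well (0.59, adjusted p = 0.0434). Cd27, a costimulator of the TNF receptor family, had a value of 0.38 (adjusted p = 0.125, and 0.0497 without Phf2 replicate 1), and Cd28, the main costimulatory receptor, one of 0.28 (adjusted p = 0.208). Cd5 (0.14), Icos (-0.08) and Cd6 (-0.10) lay close to 0, with 95% intervals that included it.

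The 4 checkpoint receptors, which restrain activated T cells, did not pass the test. Tigit read 6.11, 6.09, 6.28, 6.15 and 6.29 in Phf2 mice, against 5.85, 5.92, 5.94, 6.31 and 5.85 in GFP mice. The 5 Phf2 mice lay above 4 of the GFP mice, and the difference was 0.21 (adjusted p = 0.2). Without GFP replicate 4, the mouse that stood above the rest, Tigit passed the test (0.29, adjusted p = 0.0195). Pdcd1, for PD-1, had a value of 0.22 (95% interval 0.04 to 0.39, adjusted p = 0.127). Ctla4 had one of 0.21 (95% interval -0.10 to 0.52), with 4.30, 4.28, 4.93, 5.02 and 4.68 in Phf2 mice and 4.30 to 4.64 in GFP mice. Lag3 had one of -0.01 (95% interval -0.20 to 0.18).

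Receptors for cytokines and the early activation marker did not pass the test either. Il2rb, the chain that IL-2 and IL-15 receptors share, read 5.20, 5.35, 5.68, 5.69 and 5.25 in Phf2 mice, against 5.18, 5.52, 5.27, 5.31 and 4.91 in GFP mice. Only Phf2 mice 3 and 4 lay above all GFP mice, and the difference was 0.20 (95% interval -0.08 to 0.47). Il7r, the receptor of naive and memory T cells, had a value of 0.13 and Cd69, an early activation and residency marker, one of 0.12, both with intervals that included 0. Both were dim, with mean levels in the lowest 13.6% (Il7r) and 4.91% (Cd69) of genes, so that these values do not show absence of change. Of the transcription factors, Foxp3, the factor of regulatory T cells, read 5.24, 5.27, 5.10, 5.14 and 5.42 in Phf2 mice and 5.34, 5.36, 5.24, 5.35 and 5.16 in GFP mice, with a difference of -0.06 (95% interval -0.22 to 0.10). The T-box factors Tbx21, for T-bet, and Eomes, which direct killer and NK cells, had values of 0.08 (95% interval -0.08 to 0.24) and 0.02 (95% interval -0.11 to 0.15). Ifng, the cytokine these cells release, averaged 4.83 ± 0.13 in Phf2 mice and 4.83 ± 0.12 in GFP mice (SD, n = 5 each).

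Whether members changed by different amounts was tested for 6 pairs on the difference of their values within each array, with a two-sided exact permutation test adjusted over the 6 pairs. The change of Cd8a exceeded that of Cd4. The excess was 0.69 on the log2 scale (95% interval 0.30 to 1.08, adjusted p = 0.0238). For Cd8b1 against Cd4 it was 0.57 (95% interval 0.03 to 1.11, adjusted p = 0.0476), a call lost without any 1 array other than Phf2 replicate 5 (exact permutation test, adjusted p = 0.0762 to 0.0952). Cd4 itself differed by 0.07, so that the excesses over it are mostly the changes of Cd8a and Cd8b1 themselves. The change of Cd3g exceeded that of the NK receptor gene Ncr1 by 1.58 (95% interval 0.84 to 2.32) and that of Foxp3 by 1.56 (95% interval 0.69 to 2.43). The change of Nkg7 exceeded that of Ncr1 by 1.16 (95% interval 0.61 to 1.71). The Ncr1 feature was dim, at a level where the array resolves little, so that the excesses over Ncr1 are mostly the changes of Cd3g and Nkg7 themselves and do not measure how much less Ncr1 RNA changed. The excess over Foxp3, whose own difference was -0.06, is likewise mostly the change of Cd3g. In each of these 3 pairs the groups did not overlap, and the exact permutation p of 0.00794 (adjusted p = 0.0159) was the smallest that 5 against 5 arrays allow. Tbx21 and Eomes did not differ in their change beyond the spread (0.06, 95% interval -0.07 to 0.19, exact permutation test, adjusted p = 0.333). Features differ in how steeply they respond, so that such a difference shows unequal change in signal and not that either gene stayed the same.

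The Phf2 livers differed among themselves in these genes. Over the 9 members that passed the test, the mean was 5.58, 5.77, 6.13, 6.34 and 5.53 in Phf2 mice 1 to 5. It was 4.86, 5.15, 5.12, 4.99 and 4.94 in GFP mice 1 to 5. These 9 were picked by the same comparison, which sets their group means apart in advance. Over all 37 members the mean was 4.9, 4.97, 5.1, 5.21 and 4.92 in Phf2 mice. In GFP mice it was 4.66, 4.79, 4.75, 4.73 and 4.67. Phf2 mouse 4 was the highest of all 10 for 7 of the 9 and Phf2 mouse 3 for the other 2, Gzma and Klrd1. Phf2 mice 1 and 5 were each the lowest of the Phf2 mice for 4 of the 9. Over all 37 members, Phf2 mouse 4 was the highest for 19. The SD was larger in Phf2 mice for 8 of the 9 members and for 26 of the 37 (70.3%), against 39.7% of all genes. Gzma followed this order less closely, with 6.20 to 6.46 in the other 4 Phf2 mice.

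**Figure D3:**
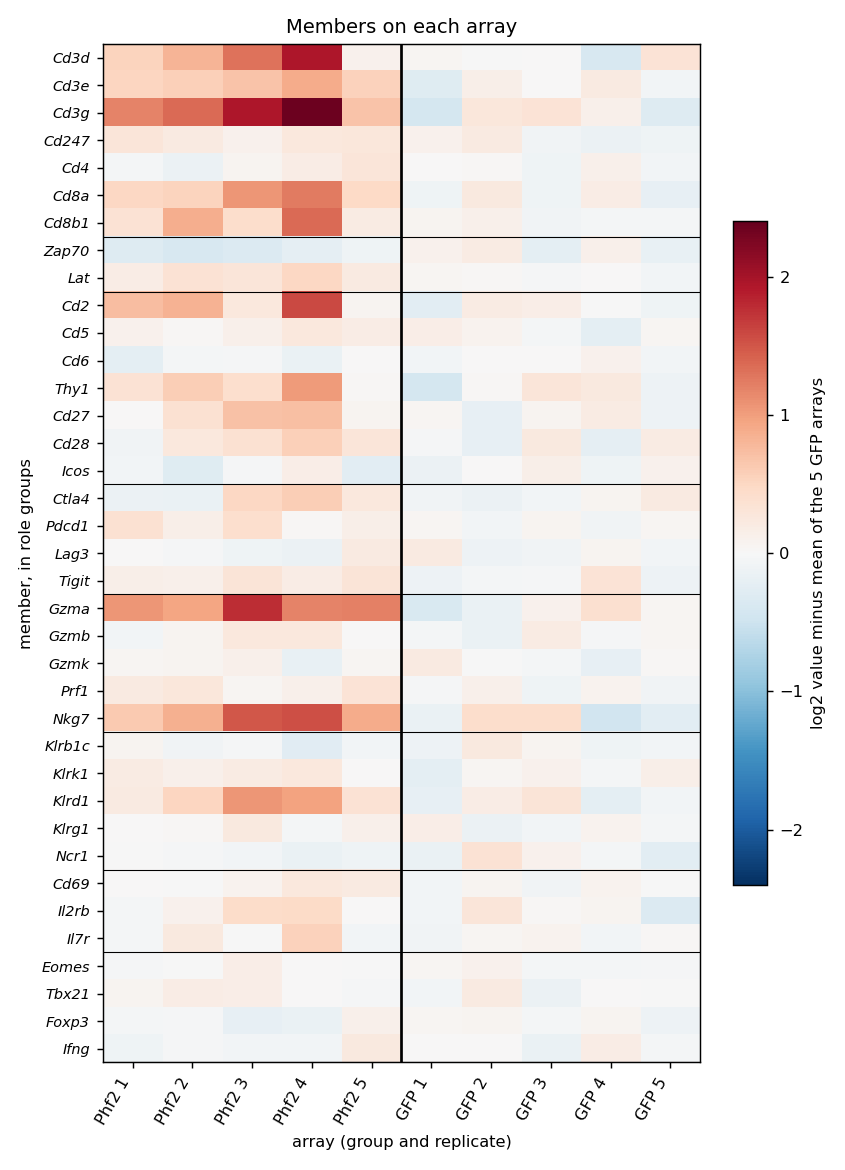
Log2 RMA value of each member (rows, in role groups separated by lines) on each of the 10 arrays (columns, Phf2 replicates 1 to 5 and then GFP replicates 1 to 5), minus the mean of the 5 GFP arrays for that member. Red is above that mean, and the darkest cell is Cd3g in Phf2 replicate 4.

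Some markers of other cells were higher in Phf2 mice, some were lower and some did not pass the test, and their part in the result was not tested. Beside the counts below, 5.43% of all genes were higher and 4.24% lower at the adjusted threshold. Of 6 B and plasma cell markers, 0 passed the test by limma (1, Mzb1, had an unadjusted p under 0.05), and their mean was 4.68 to 5.42 in Phf2 mice and 4.62 to 5.02 in GFP mice, highest in Phf2 mouse 4. Of 5 Kupffer cell markers 4 were lower, with a mean of 6.71 to 6.88 in Phf2 mice, against 7.56 to 8.07 in GFP mice. The haemoglobin scavenger receptor Cd163 had a log2 difference of -1.89 (adjusted p = 3.82e-09) and the phosphatidylserine receptor Timd4 one of -1.59 (adjusted p = 0.000252). Of 6 monocyte and macrophage markers 2 were higher, the chemokine receptor Ccr2, by 0.69 (adjusted p = 0.0166), and the lysozyme Lyz2, by 0.64 (adjusted p = 0.0327). Of 6 dendritic cell markers 2 were higher, the integrin Itgax, by 0.66 (adjusted p = 0.0102), and Clec9a, a receptor for dead cells, by 0.52 (adjusted p = 0.0452). Of 5 hepatocyte markers 2 were lower, Tat, for tyrosine aminotransferase (value -0.83, adjusted p = 0.0407), and Apoa1, for the main HDL protein (value -0.21, adjusted p = 0.0263). Tat was lowest in Phf2 mice 3 and 4, at 10.68 and 10.75, against 12.08 to 12.18 in GFP mice. The 1 erythroid marker measured, Alas2, was lower (value -0.89, adjusted p = 0.000463).

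In the remaining lists, Lyve1, a marker of sinusoidal endothelium, was the 1 of 5 endothelial markers that was higher, by 0.51 (adjusted p = 0.0211). None of the 5 neutrophil, 5 stellate cell, 4 bile duct and 4 thymocyte markers passed the test by limma at the adjusted threshold. At an unadjusted limma p under 0.05 were S100a9 of neutrophils (0.52), Reln (-0.23), Lrat (0.53) and Dcn (0.19) of stellate cells, Krt7 of bile ducts (0.31) and no thymocyte marker. The thymocyte markers Rag1, Rag2, Ptcra and Dntt, which mature T cells lack, averaged 3.88 to 4.05 in Phf2 mice, against 3.86 to 4.04 in GFP mice. Pancreatic acinar markers, foreign to liver, ranged widely within both groups, with means of 6.14, 10.46, 9.85, 8.5 and 6.53 in Phf2 mice and 12.25, 8.13, 7.11, 6.52 and 7.69 in GFP mice. GFP mouse 1, with the highest acinar level, had the lowest mean of the 9 members. Among Phf2 mice the order went the other way, as mice 1 and 5 had the lowest acinar levels and also the lowest means of the 9 members. With the acinar mean as a covariate 9 members were higher. Without the array of each group with the highest acinar level, Phf2 replicate 2 and GFP replicate 1, 5 members passed the test, Cd3e, Cd3g, Cd8a, Gzma and Nkg7.

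**Figure D4:**
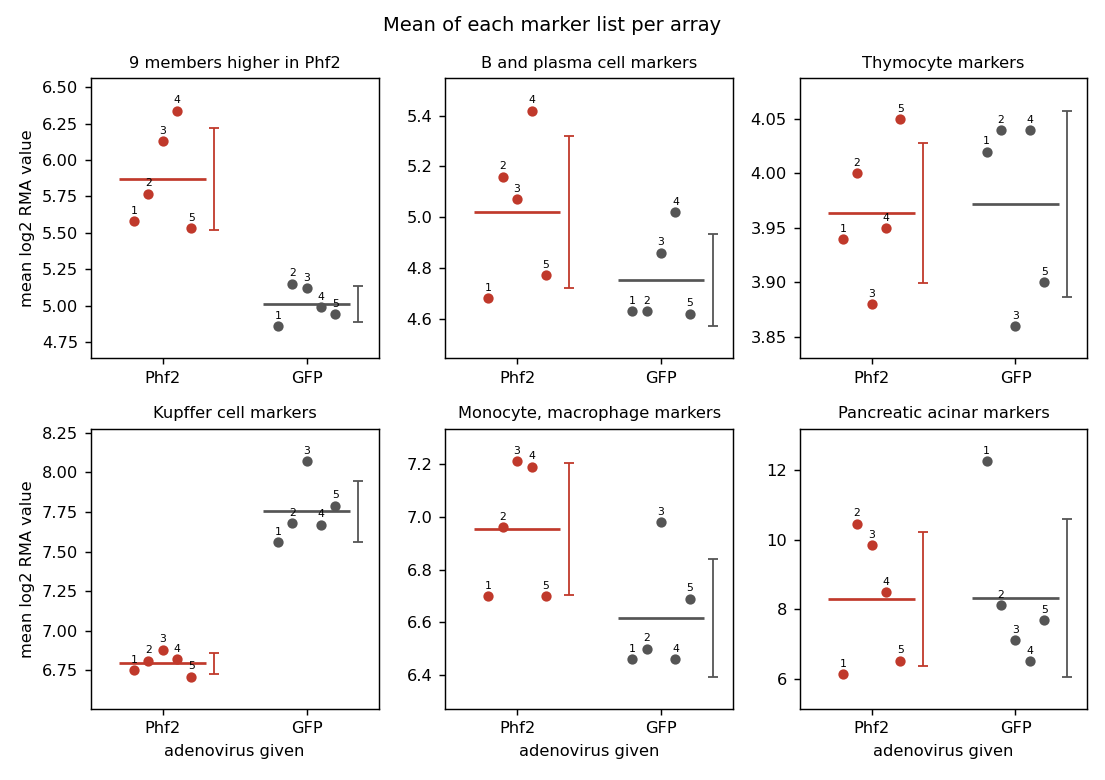
Mean log2 RMA value per array (vertical axis, scaled to each panel) of the 9 members that were higher in Phf2 mice and of 5 marker lists, with Phf2 arrays in red and GFP arrays in grey, numbered by replicate. Long lines are means and bars the SD. The groups are apart for the 9 members, which were picked by this same comparison, so that their separation is no further result. They are apart in the other direction for Kupffer cell markers. They overlap for B and plasma cell, thymocyte, monocyte and macrophage, and pancreatic acinar markers.

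Other genes of T cells and NK cells were taken from lists chosen by function. Of 24 further genes of T cell signalling and identity, 3 were higher and 0 lower, with a median log2 difference of 0.06. At this threshold 5.43% of all genes were higher and 4.24% lower, with a median of -0.015. Whether these lists differ from all genes was not tested. Ptpn22, a phosphatase that restrains receptor signalling, read 5.50, 5.37, 5.75, 6.02 and 5.31 in Phf2 mice, against 4.53, 4.89, 5.14, 4.97 and 4.78 in GFP mice. The groups did not overlap, with a difference of 0.73 (standard error 0.14, adjusted p = 0.00649). Themis, which acts in receptor signalling during T cell development, was higher by 0.59 (standard error 0.12, adjusted p = 0.00922), and Rhoh, a GTPase of blood cells, by 0.52 (adjusted p = 0.00431). Of 28 further cytotoxic and NK genes, 3 were higher and 0 lower, with a median of 0.10. Ccl5, a chemokine that killer T cells and NK cells store and release, read 8.83, 9.13, 9.50, 9.81 and 8.46 in Phf2 mice, against 6.57, 7.07, 7.54, 7.46 and 7.38 in GFP mice. The difference was 1.94 (standard error 0.25, adjusted p = 0.000392). Ccl5 ordered the 5 Phf2 mice as the mean of the 9 members did, from mouse 4 down to mouse 5. Ccl3, another chemokine that attracts lymphocytes and monocytes and that macrophages also make, was higher by 1.14 (standard error 0.12, adjusted p = 0.000107), and Slamf7, a receptor of NK cells, plasma cells and other leukocytes, by 1.05 (adjusted p = 0.00659).

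Of 26 genes for ligands and cytokines that act on the members, 3 were higher and 2 lower, with a median of 0.07. Of all genes, 5.43% were higher and 4.24% lower, and a difference of this list from all genes was not tested. Cd48, the mouse ligand of CD2, read 6.03, 6.44, 6.60, 6.97 and 6.09 in Phf2 mice, against 5.41, 5.32, 6.03, 5.70 and 5.78 in GFP mice. Phf2 mouse 1 and GFP mouse 3 lay next to each other without overlap of the groups, and the difference was 0.78 (standard error 0.18, adjusted p = 0.0165). Lgals3, for galectin-3, which binds LAG-3 among other glycoproteins, was higher by 0.55 (adjusted p = 0.0091), and Il15, the cytokine that sustains NK cells and memory CD8 T cells through IL2RB, by 0.47 (adjusted p = 0.0366). Cdh1, for E-cadherin, a ligand of KLRG1 that epithelial cells carry, was lower, at 7.61 to 7.96 in Phf2 mice, against 8.02 to 8.45 in GFP mice (value -0.49, adjusted p = 0.00428). Clec2d, for a ligand of the NKR-P1 receptors, read 8.59, 7.68, 7.84, 7.73 and 8.99 in Phf2 mice and 8.74, 8.77, 9.31, 9.03 and 9.10 in GFP mice. It was lower in Phf2 mice (value -0.82, adjusted p = 0.0452), with mouse 5 inside the GFP range.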

How the data were processed

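Livers of 5 Phf2 and 5 GFP mice were each measured on 1 array, and samples were grouped by the titles in the labels. The authors deposited log2 values for 35556 features, normalized by RMA (Bioconductor), and used Partek for statistics. Tool versions and build: not given in the sources used here. A human array is named in the methods, whereas the features carry mouse gene annotation. Of the features, 21789 had 1 symbol and 21698 of these were matched by gene number to GRCm38.p6 for names. The 1621 features with several symbols and the 12146 without any were not used, and a gene with several features (999 genes) was read by the one with the highest mean, which left 19938 genes. RMA brings arrays to a similar level and compresses differences of dim features.

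For Phf2 against GFP, lmFit and eBayes of limma 3.58.1 (R 4.3.3) were run without covariates. P-values were adjusted by Benjamini-Hochberg across the 19938 genes, 0.05 was the threshold, and the scripts were tested on simulated data. Intervals are at 95%. Pairs of members were compared by exact permutation (scipy 1.17.1). All members are named, with the value on each array for those past the threshold, for Cd3g, Cd8a and Nkg7, and for the brightest member of a role group with no call. Ncr1, Cd2 and other members with array values, Dcn and further called genes of the lists were named after their values were seen. Each other list gave up to 2 called genes that rose most and 2 that fell most, or up to 2 with the smallest p where none was called. Members, from which the pairs were drawn, and lists were chosen with earlier results of these data known. Precision is limited by having 5 arrays a group, and p-values set the difference between the groups against the spread between these mice. Alternatives tried included array weights, the methods' t-test, a robust prior with an intensity trend, leaving out dim genes, quantile normalization, median centring, all features, the mean of a gene's features, a replicate block, the study's thresholds and leaving out each array. The acinar marker settings were added after the data were seen.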

Additional observations from a re-analysis of the deposited data

Results flagged for a closer look

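Single arrays stood apart from the other 4 of their group in 6 of 144 groups of 5 arrays tested, where chance gives about 1 in 20. Of these, 4 were in members. Tigit was 6.31 in GFP replicate 4, with the next GFP array at 5.94. Gzmk was 4.27 in Phf2 replicate 4, below the next Phf2 array at 4.5. Eomes was 4.20 in Phf2 replicate 3, with the next Phf2 array at 4.04. Ifng was 5.06 in Phf2 replicate 5, with the next Phf2 array at 4.80. Outside the members, the Kupffer cell marker Timd4 was 8.45 in GFP replicate 3 (next GFP array 7.53) and the acinar marker Prss2 was 12.04 in GFP replicate 1 (next GFP array 7.86).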

How the results depend on the processing

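Cd3e, Cd3g, Cd8a, Gzma and Nkg7 passed the test under all 21 alternatives run for them. These 21 include leaving out dim genes, which is no support for a member that its Phf2 values helped past that filter. The other 4 called members kept their direction, and all 41 calls lost among the called members were theirs. Cd3d passed in 4 of 20 alternatives, Cd8b1 in 7, Klrd1 in 9 and Lat in 19. The number of members higher in Phf2 ran from 6 to 11 over the left-out arrays and from 6 to 9 over the other planned settings, except without dim genes, where it was 5 of the 10 members left and their median log2 difference was 0.6699. This filter used the mean over all arrays, so that high values in Phf2 helped Cd3g, Cd8a, Gzma and Nkg7 to pass it. Neither value is support for the members' difference. Without the 2 arrays with the highest acinar markers it was 5, and 951 genes passed in all. The study's thresholds, applied here to the limma p of 1 feature per gene, called 706 genes. The study's own count came from an analysis of variance, so that it is not set beside this value. The number of members lower in Phf2 was 0 to 1 over the left-out arrays. Lag3 (0.05) and Ifng (0.00) changed sign without the 2 acinar arrays. Over the left-out arrays Lag3 ran from -0.07 to 0.05, Ifng from -0.06 to 0.04, Gzmk from -0.02 to 0.08, Ncr1 from -0.14 to 0.01 and Eomes from -0.01 to 0.05, none of them called. The excess of Cd8b1 over Cd4 ran from 0.42 to 0.74.

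The labels do not say that the replicate numbers pair the arrays. Same-numbered arrays deviated from their group means with correlations of -0.291 to -0.0421, which shows no pairing and cannot exclude one. With a replicate block 9 members were higher, with Thy1 in (0.48, adjusted p = 0.0466) and Cd3d out (0.94, adjusted p = 0.106), and 1514 genes passed. A paired exact test of 5 numbers cannot go below 0.0625, so that with the block the excesses of 0.69 (Cd8a over Cd4), 1.58 (Cd3g over Ncr1), 1.16 (Nkg7 over Ncr1) and 1.56 (Cd3g over Foxp3) had an adjusted p of 0.0938 and that of 0.57 (Cd8b1 over Cd4) one of 0.15. Where a call was lost, the cause was not tested.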
